A study of Mus musculus with 10 samples.

Results

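The nuclear genes of the mitochondrial respiratory chain were examined for peaks of RBPJ, the protein through which Notch receptors act on DNA. Members were chosen by symbol: protein-coding genes of GENCODE release M21 on mouse chromosomes 1 to 19 whose symbols start with Nduf, Uqcr or Atp5, begin with Cox4, Cox5, Cox6, Cox7 or Cox8, or are Sdha, Sdhb, Sdhc or Sdhd. This gave 91 gene records with 90 distinct symbols, out of 20807 protein-coding genes, and the other 20716 genes served as background. Atp5o had 2 records, of which one is a read-through locus, and 3 further genes with fitting symbols (Ndufa1, Ndufb11 and Cox7b) lie on chromosome X and were left out by the rule. The symbols take in more than subunits of the respiratory chain. The 8 Ndufaf genes encode assembly factors of complex I, Atp5s and Cox7a2l are not structural subunits, and the Atp5 genes encode ATP synthase, complex V. The structural subunits were 81 of the 91 records.

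The series used ChIP-seq, the sequencing of DNA pulled down with an antibody, on untreated RD1 cells, labelled as brain pericytes, the mural cells that wrap capillaries. It holds 10 samples in 5 groups of 2: antibodies against RBPJ, H3K4me1, H3K4me3 and total histone H3, and input chromatin taken with no antibody. The study's methods describe cultured pericytes from brains of mice with a floxed Rbpj allele, and the labels do not say whether RD1 cells were those cells. The files of the 2 RBPJ samples were identical and formed 1 list of 11094 peaks, each given as a chromosome, a start and an end in GRCm38 without a height or score, while the other 8 samples were not analysed here. A gene was counted as having a peak when the centre of a peak fell in a window reaching 5 kb upstream and 1 kb downstream of the transcription start site (TSS), taken as the 5′ end of the gene record. Since both replicates carried the same list, no spread between replicates could be calculated. Sequencing depth is unknown from such a list, and the 95% intervals given are exact (Clopper-Pearson) intervals that cover counting error only. They treat genes as independent draws, although neighbouring genes can share a peak. The differences between members and other genes were not tested. Absence from the list does not mean absence of RBPJ, since signal below the calling threshold is not given. Gene expression was not part of the series, so the pericyte label could not be checked against markers.

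The respiratory chain passes electrons from NADH, through complex I, and from succinate, through complex II, to complex III, cytochrome c and complex IV, and the proton gradient built on the way drives ATP synthase. Mitochondrial DNA encodes a few core subunits, and all others are made from nuclear genes, whose promoters are often CpG-rich and carry sites for NRF1, the ETS factor GABP and YY1. RBPJ binds DNA with or without the intracellular domain of a Notch receptor, and its core recognition sequence is TGGGAA, best preceded by a G.

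Of the 91 members, 32 had an RBPJ peak, or 35.2% (95% interval 25.4% to 45.9%), against 28.3% of the other genes (5855 of 20716, 27.7% to 28.9%). The background share lies inside the members' interval. Each of the 32 genes had a single peak, and the 32 peaks were distinct. Every one of them was centred within 1 kb of the TSS, where 25.9% of other genes had a peak, and the members' share was therefore 35.2% in this smaller window as well. With structural subunits alone the share was 34.6% (28 of 81). The order of members and background turned when peaks under 500 bp were left out. The members' share then fell to 19.8% (18 of 91, 12.2% to 29.4%), and that of other genes was 21.7%. Against other genes without receptor genes (Olfr, Vmn, Tas1r, Tas2r) and models named Gm or Rik, the background was 32.2%.

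Peaks were scarce on chromosomes 4 and 7, where 4.89% of other genes had one, compared with 32.7% on the other 17 autosomes. Of the 15 members on chromosomes 4 and 7, 3 had a peak (20%, 4.33% to 48.1%): Ndufaf4, Ndufab1 and Uqcrc2. On the other 17 autosomes 29 of 76 members had one (38.2%, 27.2% to 50.0%). The cause of the scarcity was not tested.

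Complex I, with 36 of the 91 records, held 16 of the 32 peaks. It takes electrons from NADH and hands them to ubiquinone, and 16 of its 36 genes had a peak (44.4%, 27.9% to 61.9%). The 28.3% of other genes lies inside this interval, and likewise inside that of the assembly factors and of each complex described after it. These were Ndufa4, Ndufa6, Ndufa7, Ndufa9, Ndufa13, Ndufab1, Ndufb2, Ndufb4, Ndufb5, Ndufb8, Ndufb9, Ndufc1, Ndufs1, Ndufs4, Ndufs7 and Ndufv2. Those without a peak included Ndufa2, Ndufa3, Ndufa4l2, Ndufa5, Ndufa8, Ndufa10, Ndufa11, Ndufa12, Ndufb3, Ndufb6, Ndufb7, Ndufb10, Ndufc2, Ndufs3, Ndufs5, Ndufs6, Ndufs8, Ndufv1 and Ndufv3. Ndufa4 was counted here by its symbol, although its protein is now placed in cytochrome c oxidase. Among the assembly factors, which build complex I and leave it, Ndufaf1, Ndufaf3, Ndufaf4 and Ndufaf5 had a peak and Ndufaf2, Ndufaf6, Ndufaf7 and Ndufaf8 did not (4 of 8, 15.7% to 84.3%).

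Of the core subunits of complex I made from nuclear genes, which carry the flavin and the iron-sulphur clusters, 3 of 7 had a peak (42.9%, 9.90% to 81.6%, against 28.3% of other genes). The peak of Ndufs1, an iron-sulphur subunit at the NADH end, was 3193 bp wide (chr1:63174978-63178170) and held 5 copies of TGGGAA. Its centre lay 259 bp downstream of the Ndufs1 TSS but nearer to the TSS of Eef1b2, a translation elongation factor gene, so the peak belongs to both windows. Ndufv2, which carries a cluster of the NADH-oxidising part, had a peak of 821 bp (chr17:66101230-66102050) centred 81 bp upstream, with 1 copy. Ndufs7, whose cluster passes electrons on to ubiquinone, had a peak of 387 bp (chr10:80249421-80249807) inside the gene, 493 bp downstream of the TSS and without a copy. The core genes without a peak included Ndufs3, Ndufs8 and Ndufv1.

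The accessory subunits surround this core and include those of the membrane arm. Ndufa13 had the widest peak among them, 1941 bp (chr8:69901469-69903409), with 2 copies of TGGGAA, and it also fell in the windows of Tssk6 and Yjefn3. The peak of Ndufs4, whose loss disables complex I in mice, was 1537 bp wide, was centred 91 bp upstream and held 3 copies, and the GC content of its central 200 bp, 40.5%, was the lowest of the 32. Over all member peaks the median of this GC content was 61.25%, compared with 66% at other genes. The peaks of Ndufa6 (686 bp) and Ndufb4 (566 bp) held no TGGGAA and fell in no other gene's window. That of Ndufa6 was centred 132.5 bp upstream of the TSS and that of Ndufb4 114.5 bp downstream, in a coding exon. Ndufc1 (388 bp) was alike in having a centre in a coding exon, 96.5 bp downstream. Among the assembly factors, Ndufaf1 had a peak of 442 bp with 1 copy, 123.5 bp upstream, and Ndufaf3 a peak of 589 bp without one, 219 bp downstream and shared with Dalrd3.

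Complexes II and III had few peaks, from few genes. Complex II, succinate dehydrogenase, had 1 in 4 (25%, 0.631% to 80.6%). It lay at Sdhc, a membrane anchor that helps to hold the haem, and not at Sdha, Sdhb or Sdhd. This peak of 413 bp (chr1:171150383-171150795) was centred 14 bp downstream of the Sdhc TSS and held no TGGGAA. Complex III, the cytochrome bc1 complex, had peaks at Uqcrc2, a core protein, and Uqcrq, a small subunit (2 of 8, 3.19% to 65.1%). Uqcr10, Uqcr11, Uqcrb, Uqcrc1, Uqcrfs1 (the Rieske iron-sulphur protein) and Uqcrh had none.

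Complex IV, cytochrome c oxidase, had a peak at 2 of 17 genes (11.8%, 1.46% to 36.4%). The peaks were at Cox5b and Cox6a1. The peak of Cox5b was 246 bp wide (chr1:36691376-36691621) and centred 49.5 bp downstream of the TSS. That of Cox6a1 was 1568 bp wide (chr5:115347598-115349165), covered the TSS and was centred 599.5 bp downstream in an intron. Neither held TGGGAA. No peak was listed at Cox4i1, Cox4i2, Cox5a, Cox6a2, Cox6b1, Cox6b2, Cox6c, Cox7a1, Cox7a2, Cox7a2l, Cox7b2, Cox7c, Cox8a, Cox8b and Cox8c. Of these, Cox6a2, Cox6b1, Cox6b2, Cox7a1 and Cox8b lie on chromosome 7, and without chromosomes 4 and 7 the count for complex IV was 2 of 12 (16.7%, 2.09% to 48.4%), the same share as for complex III (1 of 6). The interval of complex IV overlaps that of complex I.

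ATP synthase had a peak at 7 of 18 records (38.9%, 17.3% to 64.3%). They were Atp5b, the catalytic β subunit, Atp5f1 of the peripheral stalk, Atp5g3 of the c ring, Atp5j, coupling factor F6, and the small membrane subunits Atp5j2, Atp5k and Atp5mpl. Atp5a1 (the α subunit that pairs with Atp5b), Atp5c1, Atp5d, Atp5e, Atp5g1, Atp5g2, Atp5h, Atp5l, both records of Atp5o, and Atp5s had none. The peak of Atp5b was the widest of all members at 3501 bp (chr10:128081878-128085378), with 5 copies of TGGGAA, and its centre lay 355 bp downstream of the TSS. The subunits of the c ring are encoded by 3 genes, and only Atp5g3 was counted, with a peak of 574 bp (chr2:73911038-73911611) centred 1.5 bp from the TSS. Atp5g2 had a peak of 502 bp that missed the window at 1336.5 bp downstream, and Atp5g1 none in the window.

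**Figure D1:**
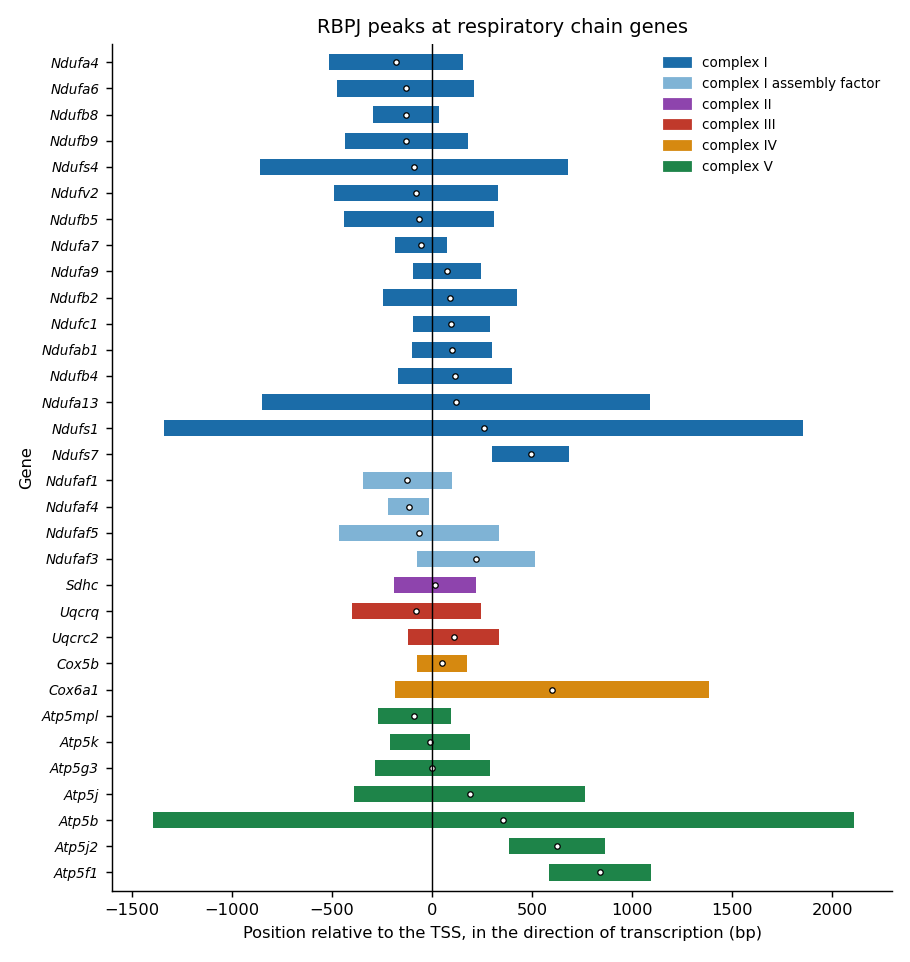
RBPJ peaks at the 32 members that had one, drawn as bars from start to end relative to the TSS (x axis, bp, positive in the direction of transcription), with a white point at the centre and colours for the complexes. Of the bars, 28 cross the TSS, those of Ndufs7, Atp5j2, Atp5f1 and Ndufaf4 do not, and Atp5b (3501 bp) and Ndufs1 (3193 bp) are the widest.

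**Figure D2:**
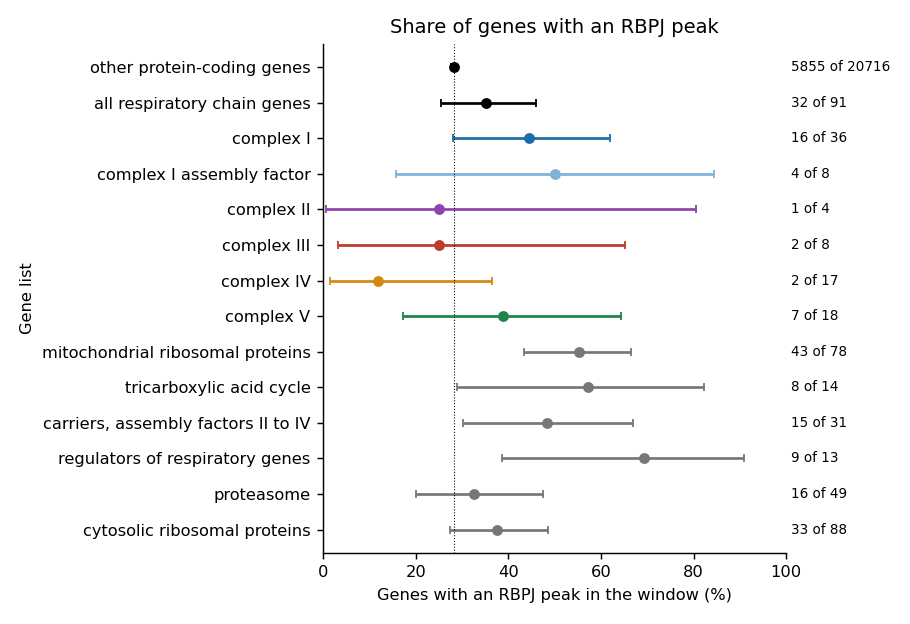
Share of genes with an RBPJ peak in the window (x axis, percent) for each gene list, with exact 95% intervals as bars and counts at the right; the dotted line marks the other protein-coding genes at 28.3%. Among the complexes the points run from 11.8% (complex IV) to 44.4% (complex I), with 50% for the assembly factors of complex I, and the intervals overlap.

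Some subunits exist as isoforms restricted to tissues such as heart, skeletal muscle, lung or testis, or induced by low oxygen. None of the 8 restricted isoforms (Cox4i2, Cox6a2, Cox6b2, Cox7a1, Cox7b2, Cox8b, Cox8c and Ndufa4l2) had a peak in the window, and with so few genes the interval reaches 36.9%, above the 28.3% of other genes. Their promoters were poor in CpG, with ratios of observed to expected CpG of 0.19 to 0.47. Among other genes 5.15% had a peak at ratios under 0.4 and 22.9% at ratios from 0.4 to 0.6. Of the 6 widely expressed partners, Cox6a1 and Ndufa4 had one (4.33% to 77.7%) and Cox4i1, Cox6b1, Cox7a2 and Cox8a did not. Ndufa4l2 and Cox4i2, the forms tied to low oxygen, are also known as genes expressed in brain pericytes. At Cox4i2 the nearest peak centre was 15.6 kb away. Ndufa4l2 differed from the others in that an interval of 10981 bp (chr10:127511013-127521993) covered its TSS and reached into Shmt2. Its centre lay 1536 bp downstream of the Ndufa4l2 TSS, outside the window, and it held 15 copies of TGGGAA, or 1.37 per kb. Ndufa4, by contrast, had a peak of 671 bp (chr6:11907344-11908014) with no TGGGAA, centred 182 bp upstream, nearer to the TSS of the divergent gene Phf14.

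The limit of 1 kb downstream left several members close by. The member centred farthest inside it was Atp5f1, at 840.5 bp downstream, with a peak of 508 bp (chr3:105959005-105959512) and no TGGGAA, followed by Atp5j2 at 623.5 bp, with a peak of 476 bp (chr5:145191201-145191676) and 2 copies. Just outside were Ndufaf8 at 1139 bp (a peak of 2767 bp), Atp5g2 at 1336.5 bp, Ndufa4l2 at 1536 bp, Atp5c1 at 1722.5 bp (4074 bp) and Atp5d at 1795 bp (4151 bp). The intervals at Ndufaf8, Ndufa4l2, Atp5c1 and Atp5d covered the TSS. When a TSS inside a peak interval was the criterion, these 4 entered and Atp5f1, Atp5j2, Ndufaf4 and Ndufs7 left, so that the members again numbered 32 (35.2%, 25.4% to 45.9%), against 24.4% of other genes. Unlike in the main window, this share lies just below the members' interval. With any start of a protein-coding transcript in place of the gene's 5′ end, the members that entered included Atp5d, Atp5g2 and Cox7a2l.

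The centres of the member peaks lay a median of 111 bp from the TSS to either side (quartiles 78.4 and 184 bp, n = 32), compared with 224 bp at other genes (90.5 and 517 bp, n = 5855). Of the 32, 23 were centred within 150 bp (71.9%, 53.3% to 86.3%), against 37.8% of other genes with a peak. The peak covered the TSS in 28 of 32 (87.5%, against 83.2%), and 18 of the 32 centres lay downstream (56.2%, against 57.1%). Median width was 570 bp (quartiles 396 and 761 bp), compared with 815 bp (505 and 1386 bp) over the 5074 distinct peaks at other genes. At the mitochondrial ribosomal protein genes, counted in the same way, the median distance was close to that of the members, at 103.5 bp (n = 43 genes), and so was the median width, at 586 bp (n = 46 peaks). Of the member peaks, 14 were under 500 bp (43.8%, against 24.6%) and 2 were over 2 kb (6.25%, against 13.4%). The 4 widest were at Atp5b, Ndufs1, Ndufa13 and Cox6a1. The 4 narrowest were at Ndufaf4 (204 bp, chr4:24897864-24898067), Cox5b, Ndufa7 (258 bp, chr17:33824387-33824644) and Ndufb8 (328 bp, chr19:44555407-44555734), and none of these 4 held TGGGAA.

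**Figure D3:**
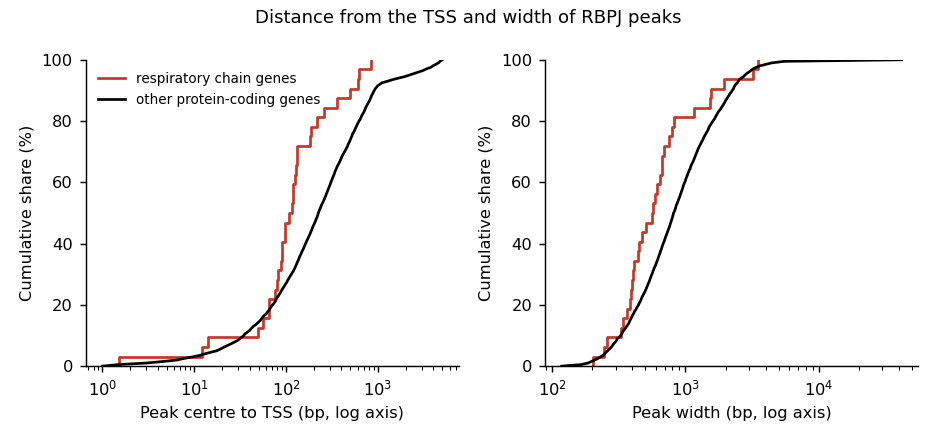
Cumulative share (y axis, percent) by the distance of the peak centre from the TSS (left, bp, log axis) and by peak width (right, bp, log axis). Respiratory chain genes are in red (n = 32). Other protein-coding genes are in black, with n = 5855 genes on the left and n = 5074 distinct peaks on the right. The red curve lies to the left over most of both panels, with medians of 111 against 224 bp for distance and 570 against 815 bp for width.

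Many of these peaks could not be assigned to 1 gene. Of the 32, 15 also fell in the window of another protein-coding gene (46.9%, 29.1% to 65.3%), against 28.8% of other genes with a peak, and the nearest gene start was the member in 26 of 32 (81.2%, 63.6% to 92.8%, against 85.1%). The exceptions were Ndufa4, Ndufa7, Ndufb9, Ndufs1, Ndufaf5 and Atp5f1, whose peaks were centred nearer to Phf14, Rps28, Tatdn1, Eef1b2, Esf1 and Wdr77. The peak of Ndufb5, an accessory subunit, was shared with Mrpl47 of the mitochondrial ribosome. The peak of Atp5j (1155 bp, chr16:84834860-84836014) was shared with Gabpa, which encodes the DNA-binding subunit of GABP, and was centred 188 bp from the TSS of Atp5j and 512 bp from that of Gabpa. By position, 11 of the 32 centres lay outside protein-coding genes, 10 in untranslated regions, 6 in introns and 5 in coding exons.

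Divergent promoters, with the TSS of another protein-coding gene on the opposite strand at most 1 kb upstream, were found at 22 of the 91 members (24.2%, 15.8% to 34.3%) and at 6.89% of other genes. Among other genes a divergent promoter went with a high share of peaks, 53.2% against 26.4% without one. Among members the shares were in the opposite order, with 6 of 22 (27.3%, 10.7% to 50.2%) against 26 of 69 (37.7%, 26.3% to 50.2%). These intervals overlap, and the difference was not tested. The 6 were Ndufa4, Ndufa7, Ndufb9, Ndufaf5, Sdhc and Uqcrq, the last with Gdf9 as its neighbour. A neighbour's TSS inside the member gene did not count as divergent. The peaks of Ndufs1, Ndufb5, Atp5j and Atp5f1, counted as having no divergent promoter, were shared with Eef1b2, Mrpl47, Gabpa and Wdr77. Divergent members without a peak included Sdha with Ccdc127, Sdhd with Timm8b, and Ndufa5 with Asb15, whose nearest peak was 1282 kb away.

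CpG content was compared because RBPJ peaks were more frequent at CpG-rich promoters. A promoter was classed as CpG-rich when the 1 kb centred on the TSS had a GC content of at least 55% and a ratio of observed to expected CpG of at least 0.75. In this class fell 26 of 91 members (28.6%) and 25.7% of other genes. Within it 12 of 26 members had a peak (46.2%, 26.6% to 66.6%), below the 56.3% of other genes, and outside it 20 of 65 (30.8%, 19.9% to 43.4%), above the 18.6% of other genes. On the 17 autosomes without chromosomes 4 and 7, 10 of 24 CpG-rich members had a peak (41.7%, 22.1% to 63.4%). This interval still holds the 63.1% of other genes. A wider class (GC at least 50%, ratio at least 0.6), added after the data were seen, held 67 members (73.6%) and 45.6% of other genes. In it 28 of 67 members had a peak (41.8%, 29.8% to 54.5%), against 49.7%, and outside it 4 of 24 (16.7%), against 10.3%. Without chromosomes 4 and 7 the share in the wider class was 42.4% of members (29.6% to 55.9%) and 56.1% of other genes. Over chromosomes 1 to 19 the share of other genes lies inside the members' interval in both classes, as it does over all genes. It lies below the interval for promoters that are not CpG-rich, and just above it for the wider class without chromosomes 4 and 7. Promoters that are not CpG-rich differed in ratio between the groups, since 9 members and 8121 other genes had a ratio under 0.4. There 1 of 9 members had a peak, against 5.15% of other genes. From 0.4 to 0.6 it was 1 of 10, against 22.9%. From 0.6 to 0.75 it was 15 of 34 (44.1%, 27.2% to 62.1%), against 40.0%. The median ratio was 0.72 for members and 0.57 for other genes. Atp5j2 and Atp5f1 were the only members under a ratio of 0.6 that had a peak, at 0.22 and 0.46. Their peaks did not cover the TSS and were centred outside the 1 kb classed, 623.5 and 840.5 bp downstream. GC content was 61% and 63% in the central 200 bp of these peaks, and 42.7% and 53.8% in the 1 kb classed.

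**Figure D4:**
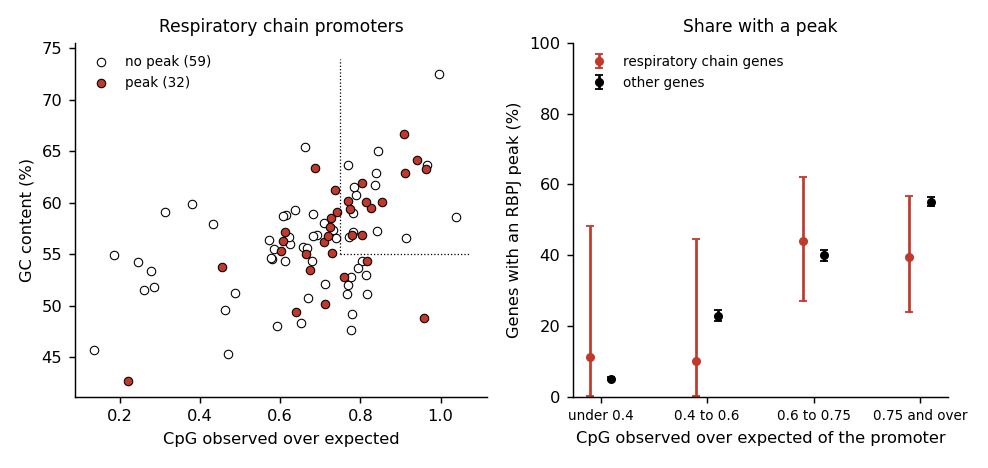
Left, GC content (y axis, percent) against the ratio of observed to expected CpG (x axis) in the 1 kb centred on the TSS of the 91 members, filled red for the 32 with a peak, with dotted lines around the CpG-rich class. Right, share of genes with a peak (y axis, percent, exact 95% intervals) by that ratio, for members (red) and other genes (black); at 0.75 and over it was 39.5% of members and 55.1% of other genes.

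Copies of TGGGAA in the central 200 bp, searched on both strands, were found in 7 of the 32 member peaks (21.9%, 9.28% to 40.0%) and in 16.1% of the 5074 peaks at other genes. GTGGGAA, which contains TGGGAA, was in 5 of 32 (15.6%, 5.28% to 32.8%), against 5.36%. Over the whole peak GTGGGAA was in 9 of 32 (28.1%, 13.7% to 46.7%), against 25.3%, and in promoters it was in 7 of 91 members (7.69%, 3.15% to 15.2%), against 5.96%. In the central 100 bp TGGGAA was in 3 of 32 member peaks (9.38%, 1.98% to 25.02%), against 8.65%. Over the whole peak, it was in 16 of 32 (50%), against 57.7% of the wider peaks at other genes. The 7 peaks with TGGGAA in the central 200 bp were those of Ndufab1, the mitochondrial acyl carrier protein (401 bp, chr7:122101588-122101988), Ndufb2 (669 bp, chr6:39592331-39592999), Ndufaf5 (799 bp, chr2:140170185-140170983), Uqcrc2 (451 bp, chr7:120635058-120635508), Atp5j, Atp5k (399 bp, chr5:108434261-108434659) and Atp5mpl (362 bp, chr12:111966885-111967246). Over their whole width the peak of Atp5mpl held 4 copies and that of Ndufaf5 2, and the other 5 peaks held 1 each. The site of each central copy is printed to show the bases around it, since these are the member peaks with a core RBPJ sequence near the centre. The sequences are those of the RefSeq copy of GRCm38.p6, read 5′ to 3′ on the strand of the gene, with TGGGAA or its complement TTCCCA in capitals and 12 bases to either side.
Ndufab1, chr7:122101738-122101767, minus strand, 133 bp downstream of the TSS: cgctgccccggcTTCCCAcgttggccttgg
Ndufb2, chr6:39592581-39592610, plus strand, 21 bp downstream: acgcatcaggggTGGGAActgcagtcttgc
Ndufaf5, chr2:140170501-140170530, plus strand, 134 bp upstream: cgaccgcacagtTTCCCAccactcttctca
Uqcrc2, chr7:120635254-120635283, plus strand, 92 bp downstream: cagcggtgaccgTGGGAAagggcaactgct
Atp5j, chr16:84835477-84835506, minus strand, 133 bp downstream: tccacagccggcTGGGAAcggcggcggcgc
Atp5k, chr5:108434483-108434512, minus strand, 50 bp upstream: taaccagccccgTGGGAAcgctcggctatc
Atp5mpl, chr12:111966958-111966987, minus strand, 4 bp downstream: gctctgtgacctTTCCCAttctgtagcaga
Atp5mpl, chr12:111967000-111967029, minus strand, 38 bp upstream: gctccttccgctTTCCCAgcaggccctgcg
The sites of Ndufab1, Ndufb2, Ndufaf5, Uqcrc2 and Atp5k had the G before TGGGAA, and those of Atp5j and Atp5mpl did not. A match is a description of the letters and does not show where RBPJ was bound.

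Promoters were then searched from 250 bases before the TSS to the first 50 bases of the gene. TGGGAA was in 26.4% of the members' promoters (24 of 91) and 25.2% of others. Among members with a peak the share was 12 of 32 (37.5%, 21.1% to 56.3%), and among those without 12 of 59 (20.3%, 10.98% to 32.8%), while among other genes it was 24.4% with and 25.6% without a peak. The motif of NRF1, here GCGCA and GCGC separated by 1 base, was in 15 of 91 (16.5%, 9.53% to 25.7%), against 6.12%. It was in 8 of the 32 promoters with a peak (25%, 11.5% to 43.4%, against 11.3%) and 7 of the 59 without (11.9%, against 4.09%). AAGATGGC, bound by YY1, was in 9 of 91 (9.89%, 4.62% to 17.9%), against 2.90%. It was in 3 of the 32 promoters with a peak (9.38%, 1.98% to 25.02%, against 4.58%) and 6 of the 59 without (10.2%, against 2.24%). It was also in the central 200 bp of 5 of 32 member peaks (15.6%, 5.28% to 32.8%), against 3.05%. CCGGAAG, bound by ETS factors such as GABP, was in 17 of 91 (18.7%), against 10.99%. It was in 15.6% of members with a peak (against 18.5%) and 20.3% of those without (against 8.03%). CCAAT, bound by NF-Y, was in 36 of 91 (39.6%), against 38.6%. It was in 3 of the 32 central windows (9.38%, 1.98% to 25.02%), an interval that holds the 19.4% at other genes. TGACGTCA, bound by CREB and ATF factors, was in 4 of 91 (4.40%), against 2.42%.

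The 120 bases upstream of the TSS are printed for 6 members, to set promoters with a peak beside promoters without one that hold the same letters. Capitals mark TGGGAA, the NRF1 motif or CCAAT, or their complements, on the strand of the gene, and the last base lies next to the TSS.
Atp5k, peak, chr5:108434449-108434568, minus strand: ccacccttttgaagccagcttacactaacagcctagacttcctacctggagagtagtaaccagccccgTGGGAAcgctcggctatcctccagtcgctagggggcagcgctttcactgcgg
Cox4i2, no peak, chr2:152754053-152754172, plus strand: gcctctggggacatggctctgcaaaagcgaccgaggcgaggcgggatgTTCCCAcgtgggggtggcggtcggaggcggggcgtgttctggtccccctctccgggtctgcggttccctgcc
Ndufaf4, peak, chr4:24897963-24898082, plus strand: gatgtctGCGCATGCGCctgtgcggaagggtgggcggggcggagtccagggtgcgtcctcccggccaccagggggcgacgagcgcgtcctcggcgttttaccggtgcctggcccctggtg
Cox6a1, peak, chr5:115348982-115349101, minus strand: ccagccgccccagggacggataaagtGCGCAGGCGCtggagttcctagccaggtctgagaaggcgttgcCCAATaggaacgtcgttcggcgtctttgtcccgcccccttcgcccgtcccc
Atp5h, no peak, chr11:115419963-115420082, minus strand: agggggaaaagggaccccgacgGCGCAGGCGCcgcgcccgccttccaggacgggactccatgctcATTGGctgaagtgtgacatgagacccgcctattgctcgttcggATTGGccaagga
Atp5g3, peak, chr2:73911327-73911446, minus strand: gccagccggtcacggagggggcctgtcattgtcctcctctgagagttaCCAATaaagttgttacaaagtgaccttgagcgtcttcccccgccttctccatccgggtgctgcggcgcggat
Atp5k and Cox4i2 both held GTGGGAA, in opposite directions, and only Atp5k had a peak. Cox6a1 and Atp5h both held the NRF1 sequence with CCAAT, and only Cox6a1 had a peak. The peak of Atp5g3, with its centre closest to the TSS of all members, held no TGGGAA.

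The 59 members without a peak in the window differed in how far the nearest peak lay. For 8 it was at most 5 kb from the TSS, for 14 at most 10 kb, and for 19 over 100 kb. Ndufa5 and Ndufc2 were the farthest, at 1282 and 1162 kb. Over all 91 members the median distance to the nearest peak centre was 9.46 kb, compared with 34.1 kb for other genes. A peak lay within 10 kb of 46 members (50.5%, 39.9% to 61.2%), against 35.5% of other genes, within 50 kb of 65 (71.4%), against 56%, and within 100 kb of 72 (79.1%), against 68.7%.

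Other genes of mitochondrial function were counted in the same window, where 28.3% of all other protein-coding genes had a peak, 56.3% of those with CpG-rich promoters and 49.7% of the wider class. The mitochondrial ribosomal proteins, which make the subunits encoded in mitochondrial DNA, had a peak at 43 of 78 genes (55.1%, 43.4% to 66.4%). The difference from the respiratory chain was not tested. Of the enzymes of the tricarboxylic acid cycle and pyruvate dehydrogenase, which supply NADH and succinate, 8 of 14 had one (57.1%, 28.9% to 82.3%). They were Cs, Fh1, Idh3a, Idh3b, Mdh2, Ogdh, Pdhb and Sucla2, and those without a peak included Dlat, Dld, Dlst, Suclg1 and Suclg2. For comparison, the share was 32.7% of proteasome genes (16 of 49) and 37.5% of cytosolic ribosomal protein genes (33 of 88). These lists were taken by symbol, and genes that are no subunit were left out only after the values were seen. Without Psmc3ip and the Psmg chaperones the proteasome had 13 of 44 (29.5%), and without Rps19bp1 and the records ending in ps and a number the cytosolic ribosome had 32 of 81 (39.5%).

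Genes that serve complexes II to IV without the symbols of the rule had a peak at 15 of 31 (48.4%, 30.2% to 66.9%), an interval above the 28.3% of all other genes that holds the 49.7% of the wider CpG class and the 56.3% of genes with CpG-rich promoters. It also holds the 32.2% of other genes without receptor genes and models named Gm or Rik. Without chromosomes 4 and 7 the share was 15 of 29 (51.7%, 32.5% to 70.6%), against 32.7% of other genes. With peaks of at least 500 bp it was 11 of 31 (35.5%, 19.2% to 54.6%), against 21.7%. In both settings the share of other genes lies inside the interval. Cycs, the mobile carrier cytochrome c, and Cyc1, cytochrome c1 of complex III, had no peak in the main window. Factors for complex IV made up 19 of the 31, and 12 of them had a peak (63.2%, 38.4% to 83.7%, an interval that holds the 49.7% and the 56.3%): Coa5, Coa6, Cox14, Cox15, Cox16, Cox18, Cox20, Pet117, Sco1, Sco2, Surf1 and Taco1. The others were Bcs1l, which inserts the Rieske protein into complex III, and Sdhaf2 and Sdhaf4 of complex II. Coa3, Coa7, Cox10, Cox11, Cox17, Cox19, Pet100, Lyrm7, Ttc19, Sdhaf1, Sdhaf3, Uqcc1, Uqcc2 and Uqcc3 had none.

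Of the regulators of respiratory and mitochondrial genes, 9 of 13 had a peak (69.2%, 38.6% to 90.9%), an interval that lies above the 28.3% of all other genes and holds the 56.3% of those with CpG-rich promoters. Peaks lay at Nrf1 (953 bp), Gabpa, Gabpb2, Yy1 (2140 bp) and Esrra (502 bp), which encode factors or subunits of factors that act at respiratory promoters, and at Ppargc1b, their coactivator. Tfam (438 bp), Tfb1m and Polrmt, which act on mitochondrial DNA itself, had one too. Gabpb1, Ppargc1a, Pprc1 and Tfb2m had none, and the nearest peak centre to Tfb2m lay 1023 bp downstream of its TSS, just outside the window.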

How the data were processed

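The authors aligned the reads to GRCm38 with bowtie, removed duplicates, called peaks in each RBPJ replicate with MACS2 and PeakRanger, joined those within 2 kb of each other, required 3 overlapping calls and dropped blacklisted regions. The deposited values are positions (bp) of peaks, without score, signal or summit, so that weak and strong sites count alike, and merging can move the centre of a wide interval away from the bound site. Chromosome names and lengths fitted the reference used (GRCm38.p6, GENCODE M21). Starts were read as counted from 1.

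Members and lists were chosen with earlier results of these data known. Members were named with or without a peak, except for an item that is not reported here. Positions, widths and TGGGAA counts were given for the 4 widest and 4 narrowest peaks, the 4 centres farthest from the TSS, peaks with TGGGAA in the central 200 bp, core subunits and isoform pairs. Other members were singled out after their values were seen. No test was made, and counts carry exact 95% binomial intervals. Calculations were checked on simulated peaks and used Python 3.11.15, pandas 2.3.3, scipy 1.17.1, pysam 0.24.0 and matplotlib 3.10.9. Alternatives covered the TSS, window, peak width, chromosomes, CpG class and assignment of peaks.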

Additional observations from a re-analysis of the deposited data

How the results depend on the processing

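The share of members with a peak was 35.2% and stayed between 28.6% and 41.8% under all alternatives except peaks of at least 500 bp (19.8%) and CpG-rich promoters (46.2%). The share of other genes (28.3%) was 31.4% with transcript starts, 25.9% within 1 kb, 30.1% with any base of the peak, 21.7% with peaks of at least 500 bp, 32.7% without chromosomes 4 and 7, 27.1% with X and Y, 24.1% with the nearest gene start, 24.4% with the TSS inside a peak, 32.2% without receptor genes and models named Gm or Rik, 56.3% with CpG-rich promoters and 49.7% in the wider class. The nearest gene start, the TSS inside a peak and the wider class were added after the data were seen. With peaks of at least 500 bp the counts fell to 10 (complex I), 2 (its assembly factors), 0 (complex II), 1 (complex III), 1 (complex IV) and 4 (complex V), and without chromosomes 4 and 7 complex III had 1. Mitochondrial ribosomal proteins fell to 34.6% and cytosolic ones to 26.1% with wide peaks. TGGGAA was in 50% of whole member peaks. Leaving out either RBPJ replicate left 35.2% of members and 28.3% of other genes, both files being identical in content. No paired analysis was possible because both replicates carried 1 list and no test was made. The limits are the single list, the missing depth and the small number of genes in each complex. The causes were not tested.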
